A study of Mus musculus with 6 samples.

Results

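The genes described here are 10 transcription factor genes of the AP-1 and EGR immediate early group, *Fos*, *Fosb*, *Fosl2*, *Jun*, *Junb*, *Jund*, *Atf3*, *Maff*, *Egr1* and *Egr2*. They were taken by symbol from a count table of 19309 genes, and all 10 had enough counts to be tested. The study sequenced RNA from M2c macrophages to find transcripts that depend on the soluble epoxide hydrolase (sEH), an enzyme that turns epoxides of polyunsaturated fatty acids into diols. Cells from 3 sEH-/- mice were compared with cells from 3 wild-type mice, and each mouse gave 1 library. According to the methods the mice were 8 to 10 weeks old and wild-type animals were strain-matched littermates. Females are stated as the source of the cells for most experiments in the methods, and for those after the comparison of the sexes in the results, while the labels do not give the sex. Both groups of cells went through the same steps. Bone marrow monocytes were grown for 7 days with M-CSF and GM-CSF at 15 ng/mL each, polarized to the inflammatory M1 state with 10 ng/mL LPS plus 1 ng/mL IFN-γ, and then repolarized to the M2c state by adding TGF-β1 (10 ng/mL). The labels give 24 h for LPS with IFN-γ and 48 h for TGF-β1, whereas in the methods the M1 polarization lasted 12 h and TGF-β1 was present for either 24 h or 48 h. Cells in the unpolarized or M1 state were not analysed here, so that no level below is a response to LPS, IFN-γ or TGF-β1.

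AP-1 is a dimer of leucine zipper proteins in which a member of the Jun family pairs with another Jun protein or with a Fos protein, and Atf3 and the small Maf protein Maff are related zipper proteins with partners of their own. EGR proteins bind GC-rich DNA through zinc fingers. Most of these genes are called immediate early because MAP kinases and the serum response factor (SRF) switch them on within minutes of a stimulus, before new protein is made. In macrophages LPS is a classical inducer of *Fos*, *Junb*, *Atf3*, *Egr1*, *Egr2* and *Maff*.

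Library totals were 5818444, 5013265 and 4400197 counts in sEH-/- replicates 1 to 3 (median 5013265) and 4632688, 6096440 and 5448287 counts in wild-type replicates 1 to 3 (median 5448287). *Ephx2*, the gene that encodes the sEH, was looked at first. The wild-type libraries had 26, 49 and 57 of its counts, the sEH-/- libraries 4, 2 and 1, which matches the labels. All 8 macrophage markers examined were present in every library. *Csf1r*, the marker with the most counts, had 482, 391 and 399 CPM in wild-type and 424, 530.3 and 546 CPM in sEH-/- cells, where CPM are counts after scaling the libraries to equal size with edgeR's TMM factors. The macrophage markers summed to 2204, 1744 and 1834 CPM in wild-type and 1984, 2396 and 2457 CPM in sEH-/- cells. *Lyz2*, a densely covered marker, had 1155, 1173 and 1154 counts in wild-type and 1153, 1170 and 1154 counts in sEH-/- cells. Its counts hardly followed the library totals, so that its CPM were lowest in the largest libraries. This limit of densely covered genes is described below.

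Markers of other cells were mostly low. Of 10 lymphocyte markers 2 were in the table, with a summed level of at most 1.21 CPM in any library and the most counts in *Cd79b*. For erythroid markers 1 of 7 (*Klf1*) and for mast cell and basophil markers 1 of 6 (*Gata2*) was measured, at most at 1.97 and 10.7 CPM. Of 12 neutrophil markers 9 were measured, which summed to 320, 272 and 277 CPM in wild-type and 287, 335 and 362 CPM in sEH-/- cells. *Mmp8* made up most of this sum, *S100a8* had 17.1 to 29.7 CPM, and the other 7 were each at or below 5.84 CPM. With 0.6 counts per exonic base *Mmp8* is densely covered like *Lyz2*, and its 1363 to 1516 counts hardly followed the library totals. Of the 9, 3 had enough counts to be tested, and of these only *S100a8* did not overlap (beside 26.3% of all tested genes). With the untested genes 4 of the 9 did not overlap, *S100a8*, *Camp*, *Ngp* and *Elane*. They were higher in every sEH-/- library than in every wild-type library, the last 3 of them at levels of at most 1.71 CPM. *S100a8* had a log2 difference of 0.54 and an adjusted p of 0.057 in edgeR. *Prtn3* went the other way, with 2.42, 5.84 and 5.56 CPM in the wild-type and 2.57, 2.42 and 2.09 CPM in the sEH-/- libraries (log2 difference −0.98, adjusted p of 0.14). These 5 genes are named after their values were seen. The 8 stromal markers differed between libraries, with sums of 12.8, 67.7 and 28.1 CPM in wild-type and 35.2, 25.2 and 16.9 CPM in sEH-/- cells.

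Levels can be compared between genes only after a correction for length, and are given for this purpose as CPM per kb of exon. In wild-type macrophages *Atf3*, a factor that limits cytokine transcription after Toll-like receptor signals, had the highest level of the 10 genes, with 100.4 ± 7.02 CPM per kb (SD, n = 3 mice), and 99.5% of 13778 tested genes with a known length lay below it. *Jund*, a Jun protein with largely constant expression in many cell types, followed with 68.5 ± 5.15 CPM per kb. Both kept these ranks in all 6 libraries. *Fos* (45.7 ± 3.65 CPM per kb), *Junb* (45.6 ± 5.23) and *Jun* (43.9 ± 0.594) could not be separated, since their ranges overlapped. They were followed by *Egr2* with 20.9 ± 0.843, *Fosl2* with 17.5 ± 1.27, *Maff* with 15.6 ± 1.64 and *Egr1* with 9.75 ± 0.919 CPM per kb. Here *Fosl2* and *Maff* overlapped, whereas *Egr2* lay above both and *Egr1* below both in each wild-type library. *Fosb* was hardly transcribed, with 2 to 14 counts per library and 0.183 ± 0.158 CPM per kb. In sEH-/- cells the order of the means was *Atf3* (99.9 ± 10 CPM per kb), *Jund* (63.3 ± 1.43), *Junb* (57.8 ± 4.12), *Fos* (52.0 ± 7.18), *Jun* (47.5 ± 5.09), *Egr2* (25.3 ± 10.7), *Fosl2* (24.8 ± 2.11), *Maff* (13.1 ± 1.01), *Egr1* (8.51 ± 1.12) and *Fosb* (0.162 ± 0.0735). *Egr2* and *Fosl2* overlapped in these cells, as did *Fos*, *Jun* and *Junb* in part.

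The control regions of some of these genes hold the DNA motifs that AP-1, EGR or SRF proteins bind. Stretches before a RefSeq start of 3 genes and a shorter site of *Fosl2* are shown because they hold such motifs. The levels of these genes are described below. RefSeq windows (GRCm38.p6, the mm10 build) covering 250 bases before a start were searched on both strands for 9 of the 10 genes in 15 windows. *Egr1* was not searched. The AP-1 motif TGACTCA or TGAGTCA was found in none of these windows and in 4.46% of all 32851 windows of that length. The related TGACATCA, which is known from the *Jun* promoter, was found for *Jun* and *Maff* (2.93% of all windows), and the cyclic AMP response element TGACGTCA for *Maff* (1.55%). The EGR motif GCGTGGGCG or GCGGGGGCG was found for *Fosl2*, *Fosb* and *Maff* (3.06%), and the CArG box, the motif of SRF, for *Egr2* (1.47%). None of these motifs was found in the windows of *Fos*, *Junb*, *Jund* and *Atf3*, which says only that these letters were not in those windows. The stretches run 5′ to 3′ along the strand of the gene, with matches in capitals, and no match overlaps another. Those of *Jun* (minus strand, chr4:95052223-95052322), *Maff* (plus strand, chr15:79347420-79347519) and *Egr2* (plus strand, chr10:67537769-67537868) are the 100 bases before a start and lie outside the exons of these genes in GENCODE M21. The stretches of *Maff* and *Egr2* lie within the gene intervals given below, and only that of *Jun* lies upstream of its whole gene. The 29 bases of *Fosl2* (plus strand, chr5:32136383-32136411) begin 89 bases before the RefSeq start, but lie in an exon of a longer GENCODE transcript. A match is a description of the sequence, and binding was not measured.
*Jun*: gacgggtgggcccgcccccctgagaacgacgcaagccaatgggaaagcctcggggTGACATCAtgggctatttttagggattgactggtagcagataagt
*Maff*: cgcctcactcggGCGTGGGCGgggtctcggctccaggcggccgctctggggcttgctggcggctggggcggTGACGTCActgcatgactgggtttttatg
*Egr2*: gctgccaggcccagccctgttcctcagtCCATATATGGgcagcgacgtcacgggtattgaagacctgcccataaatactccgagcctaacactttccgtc
*Fosl2*: ccggctgcgcGCGGGGGCGgaagggcgcg

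The genotypes were then compared gene by gene with edgeR's quasi-likelihood test. A gene was called where its adjusted p was below 0.05 and its level differed by more than 1.5-fold in either direction, and by this rule 0 of the 10 factor genes were called. Over all 13785 tested genes 2.61% were called (360 genes), 1.51% higher and 1.10% lower in sEH-/- cells, so that a count of 0 among 10 genes is close to this background. DESeq2, which gave no adjusted p for *Fosb*, and limma-voom also called 0 of the 10 genes. At an unadjusted p below 0.05, edgeR, DESeq2 and limma-voom each counted 2 of the 10, beside 23.4%, 16.8% and 23.5% of all tested genes, and in edgeR both were higher in sEH-/- cells. Without the fold threshold 1 of the 10, *Fosl2*, had an adjusted p below 0.05, against 4.01% of all tested genes. For 2 of the 10, *Fosl2* and *Junb*, the genotypes did not overlap, against 26.3% of all tested genes. The log2 fold changes, sEH-/- over wild-type, were above 0 for 5 genes and below 0 for 5 genes, with a median of 0.05 beside −0.0009 for all genes. The 360 calls became 96 and 570 without sEH-/- replicates 2 and 3, and 625, 25 and 6 without wild-type replicates 1, 2 and 3, whereas the 10 genes had no call in any of these fits. In bulk RNA of this kind, fewer cells that express a gene and less RNA per cell cannot be told apart.

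**Figure D1:**
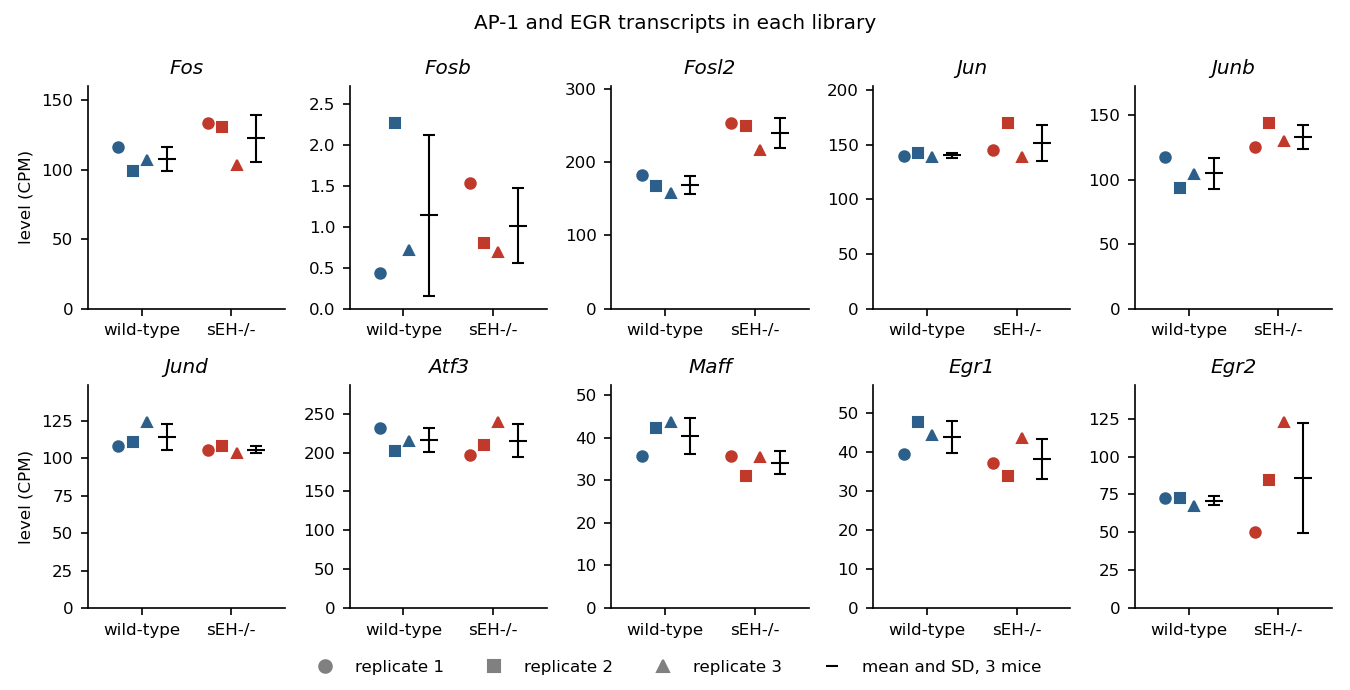
Levels of the 10 genes in CPM (vertical axes from 0, a scale for each gene) in 3 wild-type and 3 sEH-/- libraries. Points are mice and bars the mean and SD, *Fosl2* and *Junb* are the genes without overlap, and *Egr2* spreads from 50.1 to 123 CPM in sEH-/- cells.

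Of the Fos family, which supplies partners of the Jun proteins, *Fosl2* (ENSMUSG00000029135, plus strand, chr5:32135801-32157842) encodes Fra-2, a protein without the strong activation domain of Fos. The wild-type libraries had 182, 168 and 158 CPM of *Fosl2*, the sEH-/- libraries 253, 249.6 and 216 CPM. Each sEH-/- library was thus above each wild-type library, with the lowest sEH-/- value in replicate 3. The means were 169 ± 12.3 CPM in wild-type and 239.6 ± 20.4 CPM in sEH-/- cells (SD, n = 3 mice each), 1.42-fold apart with a 95% interval from 1.24-fold to 1.62-fold. On the log2 scale the difference was 0.51 with an SE of 0.086 and an adjusted p of 0.019 in edgeR, past the p threshold and under the fold threshold. DESeq2 gave an adjusted p of 4e-05 and limma-voom one of 0.028. Leaving out sEH-/- replicate 2 gave 0.06 in edgeR, and leaving out wild-type replicates 2 or 3 gave 0.11 or 0.12, at log2 fold changes of 0.49, 0.50 and 0.46.

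*Fos* (ENSMUSG00000021250, plus strand, chr12:85473890-85477273), the founding member of the family, had 116, 99.1 and 107 CPM in the wild-type and 133, 131 and 103 CPM in the sEH-/- libraries. The sEH-/- replicates 1 and 2 were above all wild-type libraries, whereas replicate 3 lay between wild-type values. The difference of 0.19 on the log2 scale, with an SE of 0.10 and a 95% interval from −0.04 to 0.42, did not pass (adjusted p of 0.30 in edgeR). *Fosb* had 2, 14 and 4 counts in the wild-type and 9, 4 and 3 counts in the sEH-/- libraries. At this depth no difference in *Fosb* was detectable, and its 95% interval, from −1.55 to 1.16, takes in changes past the fold threshold in both directions.

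Among the Jun proteins, *Junb* (ENSMUSG00000052837, minus strand, chr8:84976910-84978718), which can hold back the activity of Jun, had 117, 93.1 and 104 CPM in the wild-type and 125, 144 and 130.1 CPM in the sEH-/- libraries. The groups did not overlap, although replicates 1 of the 2 genotypes were close to each other. *Junb* means were 105 ± 12 and 133 ± 9.49 CPM (SD, n = 3 mice each), a 1.27-fold difference with a 95% interval from 1.10-fold to 1.47-fold. On the log2 scale this was 0.35 with an SE of 0.093. Its adjusted p was 0.062 in edgeR, 0.063 in limma-voom and 0.04 in DESeq2. The alternatives gave values from 0.029 to 0.26, so that *Junb* is at the border of the p threshold and under the fold threshold.

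*Jun* (ENSMUSG00000052684, minus strand, chr4:95049034-95052222), which can form AP-1 with itself, had 139.8, 142 and 138 CPM in the wild-type and 145, 169.7 and 139 CPM in the sEH-/- libraries. Only the value of sEH-/- replicate 2 stood more than a few CPM away from the others. Its log2 difference was 0.11 with an SE of 0.082 and an adjusted p of 0.46 in edgeR. *Jund* (ENSMUSG00000071076, plus strand, chr8:70698949-70700616) had 108, 111 and 124 CPM in the wild-type and 106, 108 and 103 CPM in the sEH-/- libraries. The ranges overlapped, and the log2 difference of −0.11, with an SE of 0.074, was within the replicate error (adjusted p of 0.40 in edgeR).

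*Jund* carried 0.35 counts per exonic base, and *Atf3* 0.52. Duplicate reads had been removed from these libraries, and counts in such densely covered genes followed the library total less than in others. The summed counts of wild-type replicate 2 were 1.46-fold those of wild-type replicate 1 in genes with at most 0.05 counts per base, but 1.10-fold in genes with more than 0.5, at a ratio of library totals of 1.32. In genes with 0.2 to 0.3 counts per base, where *Fos*, *Jun* and *Junb* lie, they were 1.24-fold. The median log2 fold change also rose with the density, from −0.04 in the sparse genes to 0.07 in genes with 0.3 to 0.5 counts per base, where *Jund* lies, and 0.09 in those with more, where *Atf3* lies. After the correction for this density given in the closing section, the log2 differences were −0.17 for *Jund* and −0.06 for *Atf3*, with adjusted p of 0.28 and 0.73, beside −0.11 and −0.01 without it.

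Set side by side per kb of exon, and with *Fosl1* added as the remaining gene of the Fos family, *Fosl2* made up 26.1%, 25.7% and 24.0% of the Fos family transcripts in the wild-type libraries and 30.0%, 30.8% and 32.4% in the sEH-/- libraries. *Fos* made up between 62.5% and 68.6%. *Fosl1*, which encodes Fra-1 and is named after its values were seen, had 7.69, 15.4 and 11.8 CPM in the wild-type and 8.21, 4.44 and 5.33 CPM in the sEH-/- libraries, which overlapped, and 5.25%, 11.2% and 8.58% of the family in wild-type beside 4.63%, 2.61% and 3.81% in sEH-/- cells. It had a log2 difference of −0.95, an SE of 0.31 and an adjusted p of 0.099 in edgeR. *Junb* made up 31.9%, 26.7% and 27.8% of the Jun family in wild-type and 33.3%, 34.6% and 34.9% in sEH-/- cells. The share of *Jund* was 40.6%, 43.9% and 45.6% in wild-type and 38.8%, 35.9% and 38.2% in sEH-/- cells. These shares did not overlap between the genotypes for *Fosl2*, *Fosl1*, *Junb* or *Jund*, which describes the libraries without a test or a background over all genes. Shares within a family are parts of the same sum, so that a higher share of a gene lowers those of the others. The levels of *Fosl1* and *Jund* themselves overlapped, and *Jund* is among the densely covered genes described above. Jun family transcripts outnumbered Fos family transcripts in every library, by 1.88-fold to 2.41-fold, and here the genotypes overlapped.

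**Figure D2:**
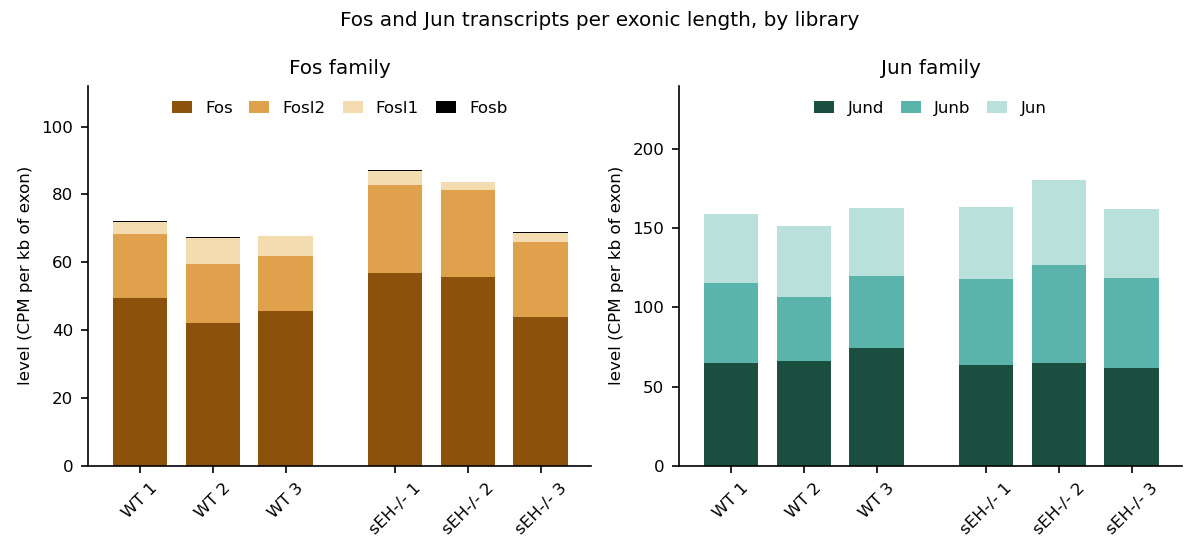
Stacked bars give the levels of the Fos family genes (left) and the Jun family genes (right) in CPM per kb of exon, with 1 bar for each wild-type (WT) and sEH-/- library. The Jun family sums lie between 151.5 and 180.4 CPM per kb and the Fos family sums between 67.4 and 87.2, and *Fosb* is too low to be seen in most bars.

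The zipper proteins outside these families differed little. *Atf3* (ENSMUSG00000026628, minus strand, chr1:191170296-191218039) had 232, 202 and 215 CPM in the wild-type and 197, 210.3 and 239 CPM in the sEH-/- libraries, and both genotypes covered the same range. The difference of −0.01 on the log2 scale, with an SE of 0.089 and a 95% interval from −0.21 to 0.19, had an adjusted p of 0.97 in edgeR, and its sign changed with the normalization (0.001 with DESeq2). *Maff* (ENSMUSG00000042622, plus strand, chr15:79346621-79359076), a small Maf protein without an activation domain, had 35.6, 42.2 and 43.6 CPM in the wild-type and 35.8, 31.1 and 35.5 CPM in the sEH-/- libraries. Wild-type replicate 1 was as low as the sEH-/- libraries. The log2 difference of −0.25, with an SE of 0.11, did not pass (adjusted p of 0.22 in edgeR).

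Of the EGR genes, *Egr1* (ENSMUSG00000038418) had 39.4, 47.5 and 44.3 CPM in the wild-type and 37.1, 33.7 and 43.6 CPM in the sEH-/- libraries. The ranges overlapped, and wild-type replicate 2 had the highest value, as it had for *Fosb* and for the stromal markers. The part of the stromal markers in these values was not tested. On the log2 scale *Egr1* differed by −0.21 with an SE of 0.12 and an adjusted p of 0.34 in edgeR.

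*Egr2* (ENSMUSG00000037868, plus strand, chr10:67535475-67542188), whose stretch shown above, before a start within this interval, holds the CArG box, had 72.6, 72.5 and 67.6 CPM in the wild-type and 50.1, 84.7 and 123 CPM in the sEH-/- libraries. The wild-type libraries were close together, whereas sEH-/- replicate 1 lay below and replicates 2 and 3 above all of them. The coefficient of variation was 4.04% in wild-type and 42.3% in sEH-/- cells. On the log2 scale the SD within genotypes was 0.46, larger than in 99.7% of the 3476 tested genes whose counts were within 1.5-fold of its own, and the median SD of these was 0.10. The genotypes differed by 0.26 on that scale with an SE of 0.24 and an adjusted p of 0.57 in edgeR, which is within the replicate error. Without sEH-/- replicate 1 the difference was 0.54 with an adjusted p of 0.045, and without sEH-/- replicate 3 it was −0.07 with an adjusted p of 0.86, so that its direction rests on single libraries.

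The *Egr2* counts of 293, 420 and 529 in sEH-/- replicates 1 to 3 ran against the library totals of 5818444, 5013265 and 4400197. Dendritic cell markers also varied among the sEH-/- libraries. Of 8 such genes 6 were in the table, with summed levels of 42.4, 59.1 and 46.8 CPM in wild-type and 27.7, 29.3 and 57.7 CPM in sEH-/- cells. Most counts fell on *Clec9a*, and *Cd209a* was at 0 in each library. The part of these markers or of the depth in the spread of *Egr2* was not tested.

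**Figure D3:**
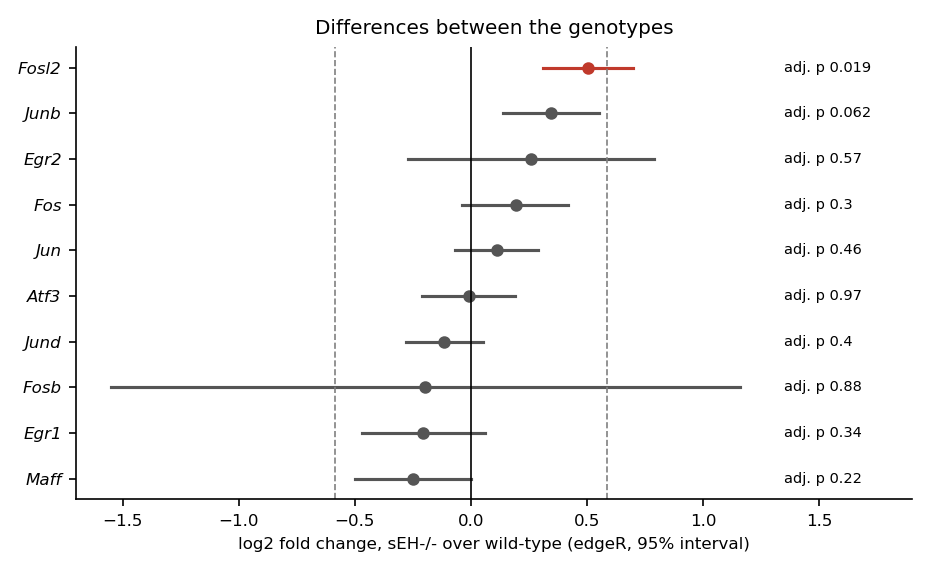
Log2 fold change, sEH-/- over wild-type, of the 10 genes (points) with 95% intervals (bars) and adjusted p from edgeR, and with the 1.5-fold threshold as dashed lines. *Fosl2*, in red, has an adjusted p below 0.05, and its interval runs from 0.31 to 0.70.

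For 7 of the 10 genes, *Fos*, *Jun*, *Junb*, *Jund*, *Atf3*, *Egr1* and *Maff*, the 95% interval of the log2 fold change lay inside the 1.5-fold threshold in both directions. The interval of *Fosl2* reached past it on the upper side, at 0.70, as did that of *Egr2* at 0.79, and that of *Fosb* reached past it on both sides. These intervals cover the spread between 3 mice of each genotype as edgeR models it.

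The genes with the most similar pattern over the 6 libraries were searched among 10268 tested genes with 50 or more counts on average, by the root mean square difference in log2 CPM relative to the wild-type mean. For *Fosl2* these were *Cdyl2*, which encodes a chromodomain protein, and *Ier2*, another immediate early gene, each at 0.047. *Cdyl2* had a log2 difference of 0.55 with an SE of 0.15 and did not pass (adjusted p of 0.066 in edgeR). *Ier2* had 30.6, 28.4 and 26.5 CPM in the wild-type and 40.4, 40.6 and 38.0 CPM in the sEH-/- libraries, without overlap. Like *Fosl2*, it passed the p threshold and missed the fold threshold, with a log2 difference of 0.48, an SE of 0.10 and an adjusted p of 0.037 in edgeR, which ranged from 0.03 to 0.17 over the alternatives and reached 0.17 when wild-type replicate 2 or 3 was left out. For *Junb* the most similar genes were *Ifi209* (0.023) and *Tor1aip1* (0.027). *Junb*, *Ifi209* and *Tor1aip1* had 0.27, 0.26 and 0.21 counts per exonic base, where counts followed the library totals less. In wild-type the CPM of each were highest in replicate 1, the smallest library, and lowest in replicate 2, the largest. The part of the depth in this likeness was not tested. For *Egr2* they were *Timp1* (0.085), which encodes an inhibitor of matrix metalloproteinases, and *Ear2* (0.15), which encodes a ribonuclease. *Timp1* had 45.1, 43.2 and 47.0 CPM in the wild-type and 32.2, 57.5 and 73.5 CPM in the sEH-/- libraries. As for *Egr2*, the wild-type values were close together and the sEH-/- values wide apart on both sides of them. This likeness over 6 libraries is a description only.

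**Figure D4:**
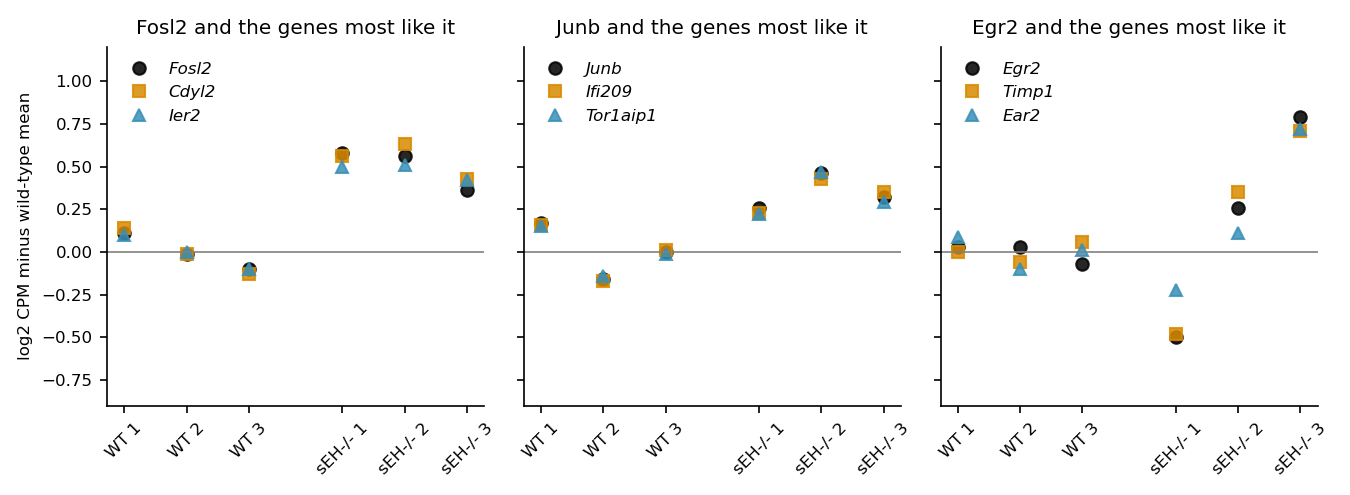
Log2 CPM relative to the wild-type mean (vertical axis) in each wild-type (WT) and sEH-/- library for *Fosl2*, *Junb* and *Egr2* and the genes most like each. *Egr2* runs from −0.50 in sEH-/- replicate 1 to 0.79 in sEH-/- replicate 3.

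Proteins that pair with these factors or act on them were looked at next. The lists in this and the following paragraphs were written with earlier results of these data known. Their shares of calls therefore do not measure an excess over all tested genes. For the counts at an unadjusted p below 0.05 in this and the following paragraphs, the shares of all tested genes are the 23.4% (edgeR), 16.8% (DESeq2) and 23.5% (limma-voom) given above, and for calls in edgeR the 2.61%. Among other AP-1 and Maf proteins 0 of 10 tested genes were called by edgeR, DESeq2 or limma-voom, with 5 at an unadjusted p below 0.05 in edgeR, 2 in DESeq2 and 5 in limma-voom, and the median log2 fold change was 0.07. Of 23 other bZIP partners, such as C/EBP and CREB proteins, 0 were called by any of these tools, with 7 at an unadjusted p below 0.05 in edgeR, 5 in DESeq2 and 7 in limma-voom, and a median of −0.04. In this list *Nfe2l1* had the most counts. Of the corepressors and other proteins of the EGR group 3 were tested and 0 called by these tools, with 1 at an unadjusted p below 0.05 in each. This was *Nab1*, which binds EGR proteins and represses them, with 113, 98.5 and 104 CPM in the wild-type and 139.9, 150.3 and 127 CPM in the sEH-/- libraries. *Nab1* did not overlap between the genotypes, and its log2 difference of 0.40, with an SE of 0.084 and an adjusted p of 0.032 in edgeR, was under the fold threshold. Its adjusted p ranged from 0.0069 to 0.16 over the alternatives and was highest, at 0.16, with wild-type replicate 2 left out.

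The signals upstream were measured through SRF with its partners and through the MAP kinase cascade, where transcript levels say nothing about phosphorylation. Of 7 genes of SRF and its partners 0 were called by edgeR, DESeq2 or limma-voom, with 3 at an unadjusted p below 0.05 in each, and the median was 0.13. *Mrtfb*, a coactivator of SRF, had the most counts and a log2 difference of −0.21 with an SE of 0.084 (adjusted p of 0.16 in edgeR). *Elk3*, a ternary complex factor named here after its values were seen, had 114, 100.3 and 111 CPM in the wild-type and 143, 188 and 153 CPM in the sEH-/- libraries, without overlap. The log2 difference of 0.57, with an SE of 0.10 and an adjusted p of 0.024 in edgeR, was just under the fold threshold. *Elk3* was called in 5 of 15 alternatives, among them the fits without sEH-/- replicate 1 (log2 0.66), sEH-/- replicate 3 (0.62) or wild-type replicate 1 (0.61). Its log2 difference fell to 0.47 without sEH-/- replicate 2, and its adjusted p rose to 0.12 when wild-type replicate 2 or 3 was left out.

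Of 32 tested genes of the MAP kinase cascade 1 was called higher and 1 lower (6.25%, beside 2.61% of all tested genes), with a median of 0.03. *Map3k5*, which encodes the stress kinase ASK1, had 32.1, 24.0 and 20.6 CPM in the wild-type and 45.8, 77.9 and 56.1 CPM in the sEH-/- libraries, a log2 difference of 1.24 with an SE of 0.21 and an adjusted p of 0.018 in edgeR. *Map3k20*, which encodes the kinase ZAK, was lower, with 149 ± 28.1 CPM in wild-type and 91.7 ± 11.4 CPM in sEH-/- cells (SD, n = 3 mice each), a log2 difference of −0.70 with an SE of 0.13 and an adjusted p of 0.027 in edgeR. Neither gene overlapped between the genotypes. Both lost their calls without wild-type replicates 2 or 3, and *Map3k20* also without sEH-/- replicate 2, with adjusted p up to 0.12 and 0.13. The log2 differences without wild-type replicates 2 and 3 were 1.195 and 1.103 for *Map3k5* and −0.553 and −0.708 for *Map3k20*. Without sEH-/- replicate 2 that of *Map3k20* was −0.587.

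Other immediate early genes share the speed of induction but mostly have other functions. Of 29 tested genes 3 were called higher and 1 lower (13.8%, beside 2.61% of all tested genes), with a median of 0.11. *Trib1*, which encodes a pseudokinase that brings C/EBPα to degradation, had 29.9, 21.7 and 20.8 CPM in the wild-type and 60.9, 89.2 and 55.9 CPM in the sEH-/- libraries, a log2 difference of 1.52 with an SE of 0.19 and an adjusted p of 0.0087 in edgeR. *Myc*, a growth regulator, had 6.82, 3.89 and 7.35 CPM in the wild-type and 20.0, 15.9 and 12.3 CPM in the sEH-/- libraries, with a log2 difference of 1.44, an SE of 0.27 and an adjusted p of 0.027. *Dusp1*, a phosphatase of MAP kinases, had 39.6, 36.3 and 36.0 CPM in the wild-type and 63.6, 82.3 and 46.8 CPM in the sEH-/- libraries, with a log2 difference of 0.79, an SE of 0.17 and an adjusted p of 0.035. In each of these genes every sEH-/- library was above every wild-type library. *Gadd45b*, a stress sensor that acts on MAP kinase kinases, was lower in every sEH-/- library, with 49.4, 37.1 and 39.7 CPM beside 57.8, 70.3 and 71.7 CPM in wild-type, a log2 difference of −0.66, an SE of 0.12 and an adjusted p of 0.027. *Trib1* lost its call without wild-type replicate 3 (adjusted p of 0.084, log2 1.43), and *Myc*, *Dusp1* and *Gadd45b* theirs without sEH-/- replicate 2 or wild-type replicates 2 or 3, with adjusted p up to 0.16. In these 3 fits, in this order, the log2 differences were 1.47, 1.19 and 1.62 for *Myc* and 0.60, 0.77 and 0.77 for *Dusp1*. Those of *Gadd45b* were −0.56, −0.62 and −0.61. *Ier2*, given above, and *Dusp6*, named after its values were seen, passed the p threshold only. *Dusp6* had a log2 difference of 0.58 with an SE of 0.12 and an adjusted p of 0.03, and was called in 5 of 15 alternatives, among them the fits without sEH-/- replicate 3 (log2 0.64) or wild-type replicate 1 (0.72). *Dusp6* missed even the p threshold without sEH-/- replicate 2 (0.07) and when wild-type replicate 2 (0.13, log2 0.46) or 3 (0.14) was left out. *Mcl1*, with the most counts of the list, had an adjusted p of 0.56.

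Downstream, 5 of 27 tested genes known as targets of AP-1 or EGR proteins were called higher and 0 lower (18.5%, beside 2.61% of all tested genes), with a median of 0.14, and DESeq2 called 7 and limma-voom 5 genes. This list too was chosen with earlier results known, so that its share is a description only. The 8 macrophage markers had a median of 0.21, with all 8 above 0 and 0 called by edgeR, DESeq2 or limma-voom. At an unadjusted p below 0.05 these tools counted 3, 4 and 3 of them (beside 23.4%, 16.8% and 23.5% of all tested genes). An adjusted p below 0.05 was reached by 1, 2 and 1, beside 4.01% of all tested genes in edgeR. Among all tested genes 49.8% were above 0, but 74.4% of those with 0.3 to 0.5 counts per base and 85.9% of those with more. The markers other than *Itgam* (0.14 counts per base) lie at these densities. *Mmp9*, a matrix metalloproteinase with AP-1 sites in its promoter, had 14.9, 16.6 and 17.6 CPM in the wild-type and 103, 49.8 and 41.0 CPM in the sEH-/- libraries, with a log2 difference of 2.0, an SE of 0.31 and an adjusted p of 0.016 in edgeR. The highest value was that of sEH-/- replicate 1. *Ccl3*, a chemokine gene, had 9.45, 8.28 and 8.42 CPM in the wild-type and 21.4, 26.4 and 15.5 CPM in the sEH-/- libraries, with a log2 difference of 1.28, an SE of 0.21 and an adjusted p of 0.018. *Il1b*, *Cxcl2* and *Ccl4* were the others, of which *Ccl4* (log2 difference 1.38, adjusted p of 0.016) is named after its values were seen. *Mmp12*, with the most counts of the list, had 401 ± 38.7 CPM in wild-type and 409 ± 54.9 CPM in sEH-/- cells (SD, n = 3 mice each) and an adjusted p of 0.92 in edgeR. Most of these genes are also targets of other factors, such as NF-κB, and which factor acts on them was not tested. Each of the 5 calls was lost without wild-type replicate 3, and all but that of *Il1b* without wild-type replicate 2, with adjusted p between 0.058 and 0.12. The log2 differences changed little in these fits, to 2.0 and 2.05 for *Mmp9*, 2.22 and 2.36 for *Cxcl2* (2.37 with all libraries), 1.25 and 1.26 for *Ccl3* and 1.43 and 1.41 for *Ccl4* without wild-type replicates 2 and 3, and to 2.34 for *Il1b* (2.31 with all libraries) without wild-type replicate 3. Without sEH-/- replicate 1 they fell to 1.472 for *Mmp9*, 1.95 for *Cxcl2*, 1.965 for *Il1b* and 1.21 for *Ccl4*, and stayed at 1.28 for *Ccl3*. The 5 calls were kept in that fit.

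Over the 131 tested genes of these 7 lists, edgeR called 9 higher and 2 lower (8.40%, beside 2.61% of all tested genes), DESeq2 13 and limma-voom 12 in either direction (beside 472 and 307 of all 13785 genes), and the median log2 fold change was 0.06. The 11 calls became 7 and 18 without sEH-/- replicates 2 and 3, and 2 and 0 without wild-type replicates 2 and 3. At an unadjusted p below 0.05 edgeR counted 57 of the 131 genes with all libraries (43.5%, beside 23.4% of all tested genes), 30 without wild-type replicate 2 (22.9% beside 13.7%) and 45 without wild-type replicate 3 (34.4% beside 16.3%). Because the genes were listed with earlier results of these data known, none of these shares is independent evidence of an excess.

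**Figure D5:**
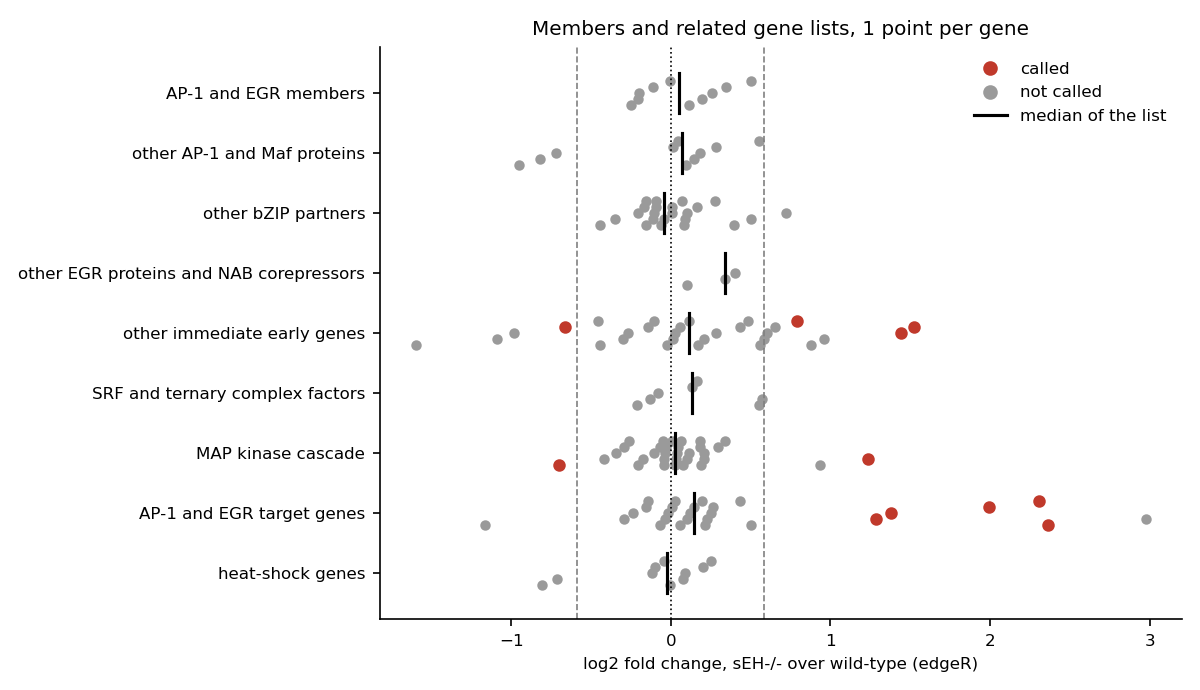
Log2 fold change, sEH-/- over wild-type, of each tested gene (points) in the 10 factor genes and the related lists, with called genes in red; black bars are list medians, the dotted line is the median of all tested genes and dashed lines are the 1.5-fold threshold. No point of the 10 factor genes lies past a dashed line, whereas 5 target genes are called on the right.

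Heat-shock genes, which respond to stress on the cells, were counted as well. Of 10 tested genes 0 were called by edgeR, DESeq2 or limma-voom, with 1 at an unadjusted p below 0.05 in edgeR, 2 in DESeq2 and 1 in limma-voom, and the median was −0.02. Their summed level was 806, 759 and 792 CPM in wild-type and 757, 813 and 837 CPM in sEH-/- cells, and the sums overlapped. *Hsph1*, with the most counts, had a log2 difference of 0.08 with an SE of 0.069 and an adjusted p of 0.55 in edgeR. The stress-inducible genes *Hspa1a* and *Hspa1b*, named, like *Dnajb1*, after their values were seen, had few counts and differed by −0.81 and −0.72 with adjusted p of 0.12 and 0.27. Of the 10 tested genes 3 did not overlap, beside 26.3% of all tested genes, with *Hspa1a* lower and *Hsph1* and *Dnajb1* higher in sEH-/- cells.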

How the data were processed

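The values are raw counts per gene as the authors deposited them. Reads were trimmed with Trimmomatic and aligned to mm10 with STAR. Picard removed duplicates, reads that were ribosomal, mitochondrial or mapped to several places were dropped, and featureCounts counted the rest over exons by strand. Versions differ between the submitters' processing notes (STAR 2.7.7a, Picard 2.21.7, featureCounts 1.6.5) and the methods, and the labels and methods name different library kits and RNA inputs.

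Tests were run with edgeR 4.0.16 in R 4.3.3 (TMM factors, glmQLFit and glmQLFTest, no covariates) on the 13785 genes with a mean count above 5, with Benjamini-Hochberg adjustment over all of them. A call needs an adjusted p below 0.05 and a log2 fold change beyond 0.585 in either direction (1.5-fold). SEs are absolute log2 fold changes over the square root of F, and 95% intervals use the t distribution with edgeR's total degrees of freedom. DESeq2 1.42.0 and limma 3.58.1 (voom) were alternatives, beside those named in the closing section. Exonic lengths are from GENCODE M21 and the sequences before a start from RefSeq. The code was tested on simulated counts.

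Members and gene lists were chosen with earlier results of these data known. Named genes are *Ephx2*, the 10 members, the called genes of each list (at most 4 in each direction, by mean count), the gene with the most counts in most lists and, for the 3 members with the largest absolute log2 fold change, the 2 most similar genes. Listed genes without a row in the table were not analysed here.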

Additional observations from a re-analysis of the deposited data

How the results depend on the processing

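None of the 10 genes was called under DESeq2, limma-voom, RLE or no TMM factors, no filter or filterByExpr, thinning, a replicate block, with each library left out, or with a correction that lets each exonic base hold at most 1 count, chosen after seeing the data; without the fold threshold 1 was called. *Fosb* could not be tested with filterByExpr or without wild-type replicate 2 and had no adjusted p in DESeq2. Over all genes 553 were called without the fold threshold, 234 with the replicate block and 6 to 625 with a library left out. The labels do not say what same-numbered replicates share. Their deviations from the genotype means had correlations of −0.07, −0.232 and −0.03, which cannot show whether they share a batch. The 11 calls in the pathway lists became 0 to 18 with a library left out, and *Ephx2* stayed between −4.53 and −3.79. Signs changed for *Fosb* (0.037 with limma-voom), *Atf3* (0.001 with DESeq2 and with RLE, and −0.078 to 0.056 with a library left out), and, with a library left out, *Egr2* (−0.072 to 0.543), *Timp1* (−0.01 to 0.536) and *Ear2* (−0.039 to 0.447), each of these 3 below 0 only without sEH-/- replicate 3; the cause was not tested. The correction to at most 1 count per base gave 0.54 for *Fosl2* and 0.40 for *Junb*, and 400 calls over all genes. Of 414 values for 26 named genes, 381 kept their direction and side of the threshold; genes named after their values were seen, among them *Elk3* and *Dusp6* (each called in 5 of 15 alternatives), and *Nab1* are not among the 26. Depth limits *Fosb* most.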
